A study of Homo sapiens with 18 samples.

Results

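Hepatocyte growth factor (HGF) and macrophage-stimulating protein (MSP) are secreted as inactive single chains and bind their receptors productively only after a serine protease cuts them. Of that step 8 genes were followed here, namely the proteases ST14 (matriptase), HPN (hepsin), HGFAC (HGF activator), PRSS8 (prostasin) and TMPRSS4, and the inhibitors SPINT1 (HAI-1), SPINT2 (HAI-2) and SERPINA5 (protein C inhibitor). They were taken by gene name, and each was matched to 1 Ensembl identifier, so they make up 8 of the 58395 gene lines of the count table. Of the 8 genes, 5 had enough reads to be tested (ST14, PRSS8, TMPRSS4, SPINT1 and SPINT2), and HPN, HGFAC and SERPINA5 were too low.

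The libraries came from BxPC-3, an established human pancreatic cancer line that the labels describe as grown in serum-containing medium. Cells received 80 ng/ml of HGF, 100 ng/ml of MSP or PBS as the vehicle, and RNA was taken 1 h or 4 h later. Each of the 6 groups (vehicle, HGF and MSP at each time) had 3 libraries, 18 in all. The labels call these triplicates and name no separate cultures, so the p-values below reflect no more than the spread among these libraries, and that spread may be technical.

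As background, matriptase, hepsin and TMPRSS4 are anchored in the plasma membrane by a segment near their N terminus, prostasin is held by a lipid anchor, and HGF activator circulates as a zymogen made mostly by the liver. Matriptase, hepsin and HGF activator cut pro-HGF, and HAI-1 and HAI-2 are membrane-bound Kunitz inhibitors that block these enzymes at the surface of epithelial cells. Matriptase and prostasin can activate each other, and both are restrained by HAI-1 and HAI-2 in surface epithelia. Protein C inhibitor is a serpin that can block HGF activator in plasma.

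Total counts per library lay between 30556613 and 48477215. Levels are given as CPM, each library's counts relative to its total after scaling by TMM factors, as mean ± SD (n = 3). The TMM factors were 0.841 to 0.860 in the HGF libraries at 4 h, 0.980 to 0.985 in the HGF libraries at 1 h and 1.03 to 1.07 in the other groups. For HGF against vehicle at 4 h the 16794 genes tested had a median log2 fold change of -0.06 with TMM factors and -0.35 with library totals alone, so each direction below is given under both scalings where they differ. All 6 epithelial markers were expressed, with KRT19 at 2187 and EPCAM at 80.1 CPM in vehicle cells at 1 h. Their summed level was 7135 to 7685 CPM in HGF libraries at 4 h against 5538 to 5760 CPM in vehicle, with 4 of the 6 called higher and KRT19 called lower (-0.11, adjusted p = 0.0283), while EPCAM was at -0.06 (adjusted p = 0.327). With library totals 4 were called higher and both KRT19 and EPCAM lower. Of the 5 hepatocyte markers ALB and TTR had 0 counts in every library and SERPINA1, the 1 that was tested, had group means of 0.0846 to 0.218 CPM. The summed level of the 6 fibroblast markers was 14.4 to 15.9 CPM in HGF libraries at 4 h and 15.3 to 17.9 CPM in vehicle, with 1 of the 3 tested called higher and 1, COL3A1, called lower (-0.72, adjusted p = 1.1e-05), and with 0 and 2 under library totals. The summed level of the 5 leukocyte markers was 1.67 to 2.92 CPM in every library, and that of the 3 endothelial markers was 2.84 to 3.35 CPM in HGF libraries at 4 h against 7.26 to 7.85 CPM in vehicle. The epithelial and fibroblast calls stand beside 33.1% of all genes called higher and 34.8% called lower, and 21.2% and 52.0% with library totals. The part of these markers in the results was not tested.

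ST14 (ENSG00000149418, chromosome 11, bases 130159562 to 130210376 on the plus strand) and TMPRSS4 (ENSG00000137648, chromosome 11, 118077012 to 118121890, plus strand) encode proteases anchored near their N terminus. PRSS8 (ENSG00000052344, chromosome 16, 31131433 to 31135762, minus strand) encodes prostasin. SPINT1 (ENSG00000166145, chromosome 15, 40844018 to 40858207, plus strand) and SPINT2 (ENSG00000167642, chromosome 19, 38244035 to 38292614, plus strand) encode the Kunitz inhibitors. Positions are those of whole genes in GENCODE 29 on GRCh38. For the counting itself no build or annotation is named in the sources used here.

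The 3 genes too low to test include the enzyme best known from plasma and its serpin. HPN (ENSG00000105707, chromosome 19, 35040506 to 35066571) had 1 count in 1 of 18 libraries. HGFAC (ENSG00000109758, chromosome 4, 3441887 to 3449495) had 20 counts over 12 libraries, at most 4 in any, or 0.0825 CPM of library totals. SERPINA5 (ENSG00000188488, chromosome 14, 94561442 to 94593120) had 0 counts in all 18. A count of 0 allows up to 3 counts, which is 0.0619 to 0.0982 CPM of library totals depending on the library, and these limits cover counting error only. ASNS and IRF9, which most cells express, were also at 0 in every library and ALDOA had at most 3 counts, so a count near 0 can also reflect how reads were assigned to genes. SERPINA5 overlaps SERPINA4 and AL049839.2 on the same strand and HPN overlaps HPN-AS1 on the opposite strand, and none of these partners had more than 3 counts in a library. No fold change is given for the 3 genes.

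Per kilobase of annotated exon, the inhibitors stood above the proteases in vehicle-treated cells. In vehicle at 1 h SPINT1 was at 89.1 ± 3.53 CPM per kilobase and SPINT2 at 58.2 ± 1.47, against 29.3 ± 0.658 for ST14, 28.8 ± 0.133 for TMPRSS4 and 23.1 ± 0.227 for PRSS8. The libraries of ST14 (28.9 to 30.1) and TMPRSS4 (28.71 to 28.98) overlapped on this scale, so these neighbours in the order did not differ beyond their spread. With the longest transcript as the length the inhibitors were still highest (103 for SPINT1 and 79.4 for SPINT2), but the proteases ran TMPRSS4 (51.7), PRSS8 (37.2) and ST14 (36.1). SPINT1 was above SPINT2 in every library of 5 groups. In HGF-treated cells at 4 h SPINT2 was the higher, at 83.5 ± 2.87 CPM per kilobase against 68.6 ± 1.42 for SPINT1, and with the longest transcript as the length the same pair stood at 114 and 79.5.

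**Figure D1:**
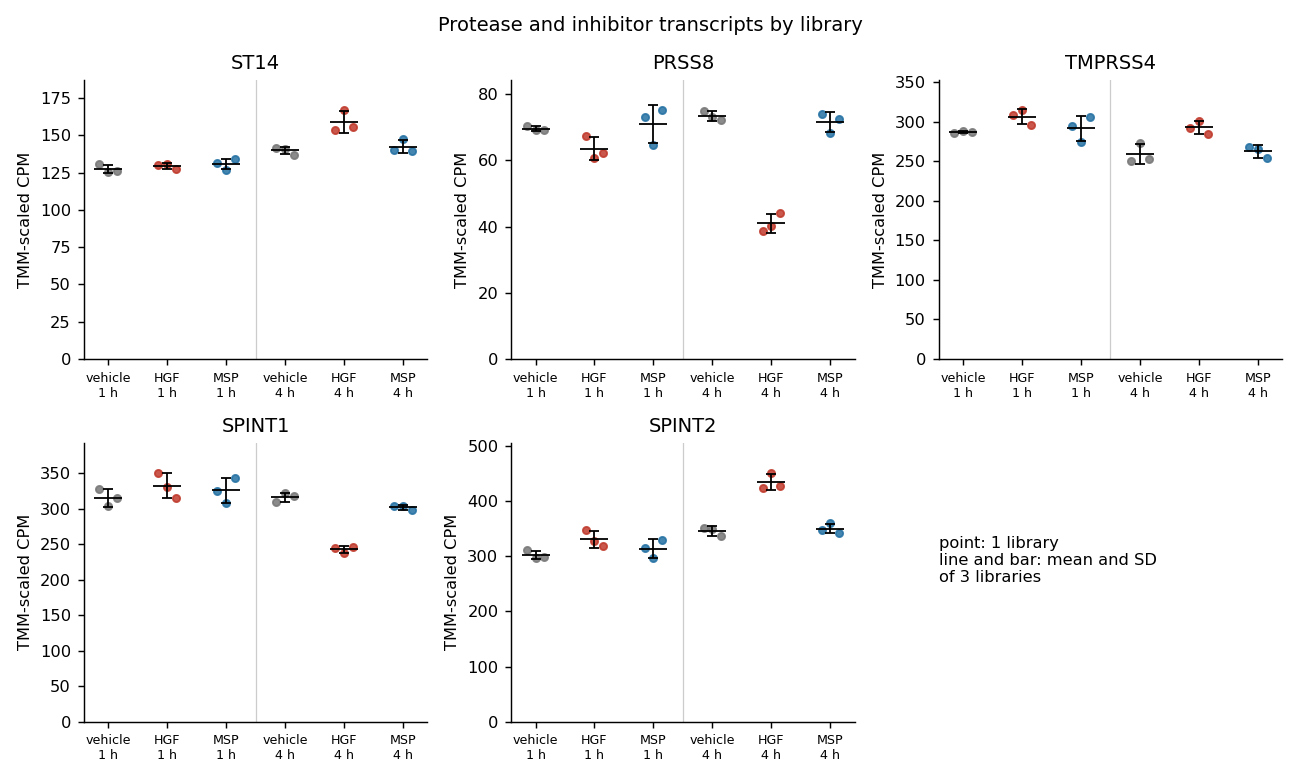
TMM-scaled CPM of the 5 tested genes in each of the 18 libraries (points), with lines for the group means, bars for the SD of 3 libraries and vehicle in grey, HGF in red and MSP in blue. In the HGF libraries at 4 h PRSS8 and SPINT1 lie below all vehicle libraries and ST14, TMPRSS4 and SPINT2 above them, and library totals put ST14 and TMPRSS4 on the lower side.

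In HGF against vehicle at 4 h all 5 tested genes passed an adjusted p of 0.05 by edgeR's quasi-likelihood test, as did 67.9% of all genes tested. PRSS8 and SPINT1 fell, and they did so with either scaling. ST14, TMPRSS4 and SPINT2 rose with TMM factors, and each kept its call in 11 of 12 alternatives run, library totals being the exception. With library totals ST14 and TMPRSS4 were called lower and SPINT2 was not called. The counts were thus 3 higher and 2 lower with TMM factors, beside 33.1% and 34.8% of all genes, and 0 higher and 4 lower with library totals, beside 21.2% and 52.0%. In bulk RNA a smaller share of cells with a transcript and less of it per cell cannot be told apart.

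Prostasin had the largest change of the 5. PRSS8 was at 75.01, 73.02 and 72.14 CPM in the vehicle libraries at 4 h and at 38.6, 40.3 and 44.0 CPM in the HGF libraries. Every HGF library was far below every vehicle library, and the spread within each group was small beside the gap. The means were 73.4 ± 1.47 and 41.0 ± 2.79 CPM, a log2 fold change of -0.84 (SE 0.06, adjusted p = 4.56e-14 by the Benjamini-Hochberg method on edgeR's quasi-likelihood test). With library totals it was -1.13 (adjusted p = 1.1e-16). Of the 16794 genes tested 2855 had a lower log2 fold change than PRSS8.

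Matriptase, the main partner of prostasin, went the other way on the TMM scale. ST14 was at 142, 141 and 137 CPM in vehicle and at 154, 167 and 156 CPM after HGF. The groups did not overlap, and the second HGF library was the highest. The means were 140 ± 2.51 and 159 ± 7.18 CPM (log2 fold change 0.18, SE 0.04, adjusted p = 0.000273). With library totals the same libraries gave -0.11 (adjusted p = 0.0151), so the direction for ST14 depends on the scaling.

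TMPRSS4, a membrane protease reported to act on pro-urokinase and the epithelial sodium channel, gave values close to those of ST14 in this comparison. It was at 251, 273 and 253 CPM in vehicle and at 292, 301 and 285 CPM after HGF. The highest vehicle library came near the lowest HGF library without reaching it. The log2 fold change was 0.18 (SE 0.04, adjusted p = 0.000799) with TMM factors and -0.11 (adjusted p = 0.0198) with library totals.

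The inhibitors went opposite ways with TMM factors. SPINT1 was at 309, 322 and 318 CPM in vehicle and at 245, 237 and 247 CPM after HGF. Each HGF library was lower than each vehicle library. The means were 316 ± 6.38 and 243 ± 5.04 CPM, a log2 fold change of -0.38 (SE 0.04, adjusted p = 7.55e-09), and library totals gave -0.67 (adjusted p = 2.77e-14). SPINT2 was at 352, 349 and 337 CPM in vehicle and at 424, 451 and 428 CPM after HGF. All HGF libraries were higher on this scale. The means were 346 ± 8.23 and 434 ± 14.9 CPM, a log2 fold change of 0.33 (SE 0.04, adjusted p = 9.29e-08). With library totals it was 0.04 (adjusted p = 0.42). SPINT1 lay above 33.2% and SPINT2 above 70.4% of all genes tested in TMM-scaled log2 fold change.

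**Figure D2:**
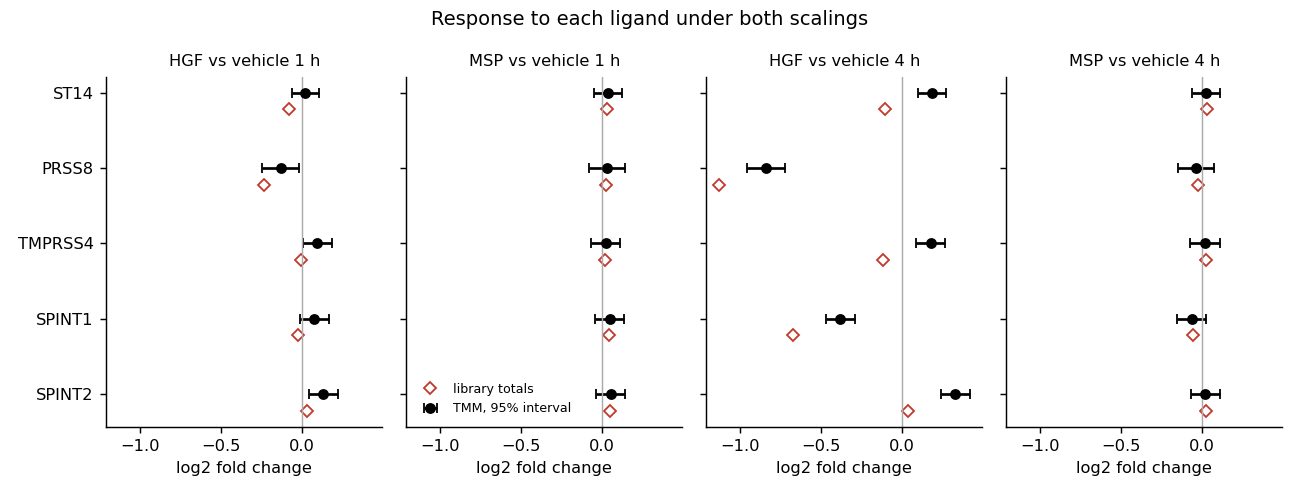
Log2 fold change of each gene against vehicle for HGF and MSP at each time, from the fit with TMM factors (black, with 95% interval) and from the fit with library totals (open red). At 4 h of HGF the library-total values of all 5 genes lie lower than the TMM values, which puts ST14 and TMPRSS4 at -0.11 and SPINT2 at 0.04, while the values of both scalings lie close together for MSP.

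**Figure D3:**
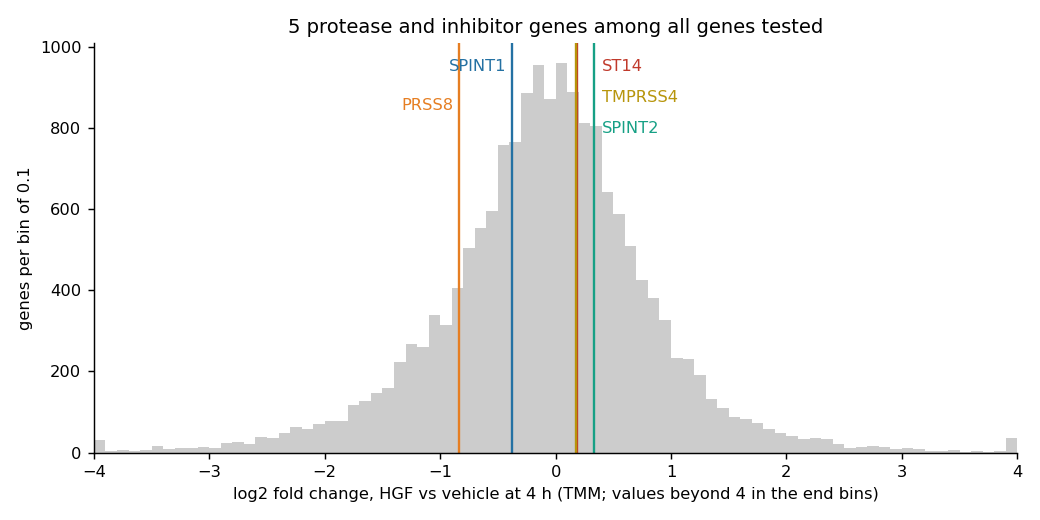
Number of genes per bin of 0.1 in log2 fold change for HGF against vehicle at 4 h (16794 genes, TMM factors), with a vertical line at each of the 5 genes. PRSS8 at -0.84 is the farthest from 0, and all 5 lie inside the bulk of the distribution, where ST14 and TMPRSS4 at 0.18 would be below 0 with library totals.

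Ratios of 2 transcripts within a library do not depend on how libraries are scaled. Of the 10 pairs that 5 genes can form, 7 were chosen for testing. In all 7, no HGF library at 4 h overlapped a vehicle library. Of these ratios 3 were higher and 4 were lower in all HGF libraries. Of the other 3 pairs, all with TMPRSS4, the TMPRSS4 to ST14 ratio overlapped (1.85 ± 0.0828 in vehicle and 1.84 ± 0.0504 after HGF), and the PRSS8 to TMPRSS4 and TMPRSS4 to SPINT2 ratios were lower in all HGF libraries. The ST14 to SPINT1 ratio was 0.443 ± 0.0138 in vehicle and 0.655 ± 0.0431 after HGF, a 1.48-fold ratio. The TMPRSS4 to SPINT1 ratio went from 0.819 ± 0.0260 to 1.21 ± 0.0595, or 1.47-fold. Relative to HAI-1 transcripts, ST14 and TMPRSS4 stood higher in every HGF library.

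Prostasin differed from both. The PRSS8 to SPINT1 ratio was 0.232 ± 0.00895 in vehicle and 0.169 ± 0.0105 after HGF (0.726-fold), and the PRSS8 to SPINT2 ratio was 0.212 ± 0.00262 and 0.0945 ± 0.00738 (0.444-fold). The ST14 to PRSS8 ratio was 1.91 ± 0.0218 in vehicle and 3.89 ± 0.314 after HGF (2.03-fold). The difference was smaller for ST14 to SPINT2, at 0.405 ± 0.00245 and 0.366 ± 0.00387 (0.904-fold). The SPINT1 to SPINT2 ratio was 0.915 ± 0.0333 in vehicle and 0.560 ± 0.0298 after HGF (0.612-fold).

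Each of these 7 differences gave p = 0.1 in a two-sided exact permutation test, the smallest that 3 libraries against 3 allow, and 0.153 after Benjamini-Hochberg adjustment over 49 comparisons, so none can pass 0.05 in this design. The 7 pairs share 5 genes and are not independent of each other. How often the ratios of other gene pairs separate in any comparison was not tested. For HGF at 4 h 67.9% of all genes tested were called.

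**Figure D4:**
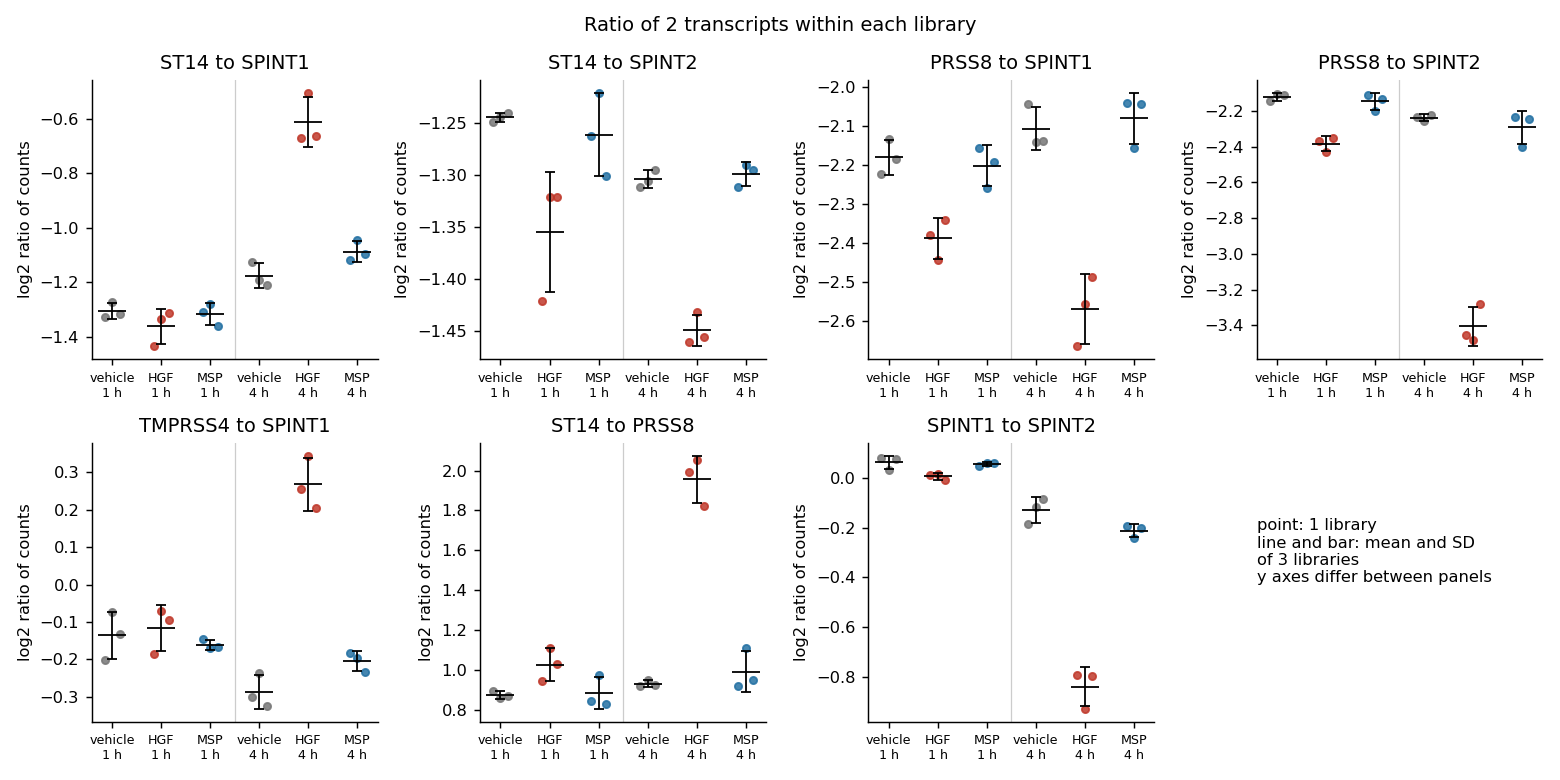
Log2 ratio of the counts of 2 genes within each library for the 7 pairs (points, with mean and SD of each group of 3, and a separate y axis for each pair). The HGF libraries at 4 h stand apart from vehicle in all 7 panels, while at 1 h the MSP libraries overlap vehicle in all 7.

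At 1 h of HGF SPINT2 alone passed the test among the 5, beside 13.8% of all genes called higher and 21.0% called in either direction. Its libraries were at 311, 297 and 299 CPM in vehicle and 348, 328 and 318 CPM after HGF. The groups did not overlap, with the lowest HGF library close to the highest vehicle library. The log2 fold change was 0.13 (SE 0.04, adjusted p = 0.0302 in edgeR's test), but with library totals it was 0.03 (adjusted p = 0.629). The call was also lost without vehicle replicate 2 (adjusted p = 0.136) or 3 (0.128), without HGF replicate 1 (0.208) or 2 (0.0562), and with no filter on low counts (0.0692).

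PRSS8 was at 70.4, 69.2 and 69.2 CPM in vehicle and at 67.5, 60.8 and 62.3 CPM 1 h after HGF. All 3 HGF libraries were lower, the first only slightly. The log2 fold change of -0.13 (SE 0.05, adjusted p = 0.0892) did not pass with TMM factors. With library totals PRSS8 was the only one of the 5 called, at -0.23 (adjusted p = 0.00182), beside 21.4% of all genes called lower under that scaling and 7.16% with TMM factors. It also passed without HGF replicate 1 (-0.18, adjusted p = 0.0362), with no filter (-0.15, adjusted p = 0.0419) and with only the compared groups in the fit (-0.14, adjusted p = 0.0252). The log2 fold changes of TMPRSS4 (0.09, adjusted p = 0.136), SPINT1 (0.07, adjusted p = 0.264) and ST14 (0.02, adjusted p = 0.81) did not pass.

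Within libraries at 1 h, the ratio of PRSS8 to SPINT2 was 0.230 ± 0.00352 in vehicle and 0.192 ± 0.00555 after HGF (0.833-fold). The PRSS8 to SPINT1 ratio was 0.221 ± 0.00693 and 0.191 ± 0.00690 (0.866-fold). Both were lower in every HGF library. Of the 7 ratios, 1 was higher and 4 were lower in all HGF libraries, and 2 overlapped vehicle, each separated one again at p = 0.1 in the exact permutation test.

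The change in the HGF response between the times was tested as the difference of the 2 log2 fold changes. It passed for 4 of the 5 genes, 2 more positive at 4 h (beside 26.8% of all genes) and 2 more negative (beside 26.4%). The difference was -0.71 for PRSS8 (SE 0.08, adjusted p = 6.62e-09) and -0.45 for SPINT1 (SE 0.06, adjusted p = 2.89e-07), and both were also called with library totals, beside 37.9% of all genes called more negative. It was 0.20 for SPINT2 (adjusted p = 0.0079) and 0.16 for ST14 (adjusted p = 0.0195), and neither was called with library totals, where they were 0.01 and -0.03. The ST14 call was also lost without HGF replicate 2 at 4 h (0.13, adjusted p = 0.0753). TMPRSS4 differed by 0.08 (adjusted p = 0.281).

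MSP, the ligand of the related receptor RON (MST1R), gave no call among the 5 transcripts at either time. At 1 h none of the 5 passed edgeR's quasi-likelihood test, at an adjusted or an unadjusted p of 0.05, and DESeq2 called 0, beside 0.834% of all genes called. The log2 fold changes were 0.02 to 0.05, and their 95% intervals together ran from -0.08 to 0.14. At 4 h the counts were again 0 at an adjusted p, 0 at an unadjusted p and 0 with DESeq2, beside 1.07% of all genes, with log2 fold changes of -0.06 to 0.02 and intervals from -0.15 to 0.11. Of the 5, SPINT1 was the one gene whose MSP libraries at 4 h (304, 304 and 299 CPM) all lay below the vehicle libraries (309 to 322), at -0.06 (adjusted p = 0.617). The share of all genes that separate in this way was not tested.

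Ratios under MSP stayed near those of vehicle. At 1 h all 7 overlapped it. At 4 h the ST14 to SPINT1 ratio (0.471 ± 0.0122, 1.06-fold) and the TMPRSS4 to SPINT1 ratio (0.868 ± 0.0163, 1.06-fold) were higher in all MSP libraries, the SPINT1 to SPINT2 ratio was lower in all (0.863 ± 0.0164, 0.944-fold), and 4 overlapped. All 3 separated ratios contain SPINT1, whose own libraries also separated, so they are not independent of it. Their exact permutation p was 0.1, and the share of other gene pairs that separate was not tested.

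Set directly against MSP at 4 h, HGF gave all 5 genes a difference past the threshold, 3 higher and 2 lower, beside 32.7% and 33.8% of all genes. PRSS8 was at 41.0 ± 2.79 CPM after HGF and 71.6 ± 2.93 after MSP (log2 fold change -0.80, SE 0.06, adjusted p = 1.32e-13), and SPINT1 was at 243 ± 5.04 and 302 ± 3.32 CPM (-0.32, adjusted p = 2.72e-07). SPINT2 differed by 0.31 (adjusted p = 2.83e-07), ST14 by 0.16 (adjusted p = 0.00121) and TMPRSS4 by 0.16 (adjusted p = 0.00231), and with library totals these were 0.01 (adjusted p = 0.81), -0.14 (adjusted p = 0.00217) and -0.14 (adjusted p = 0.005). At 1 h only PRSS8 passed, lower after HGF (-0.16, adjusted p = 0.0364), beside 6.36% of all genes called lower. With library totals PRSS8 was at -0.26 (adjusted p = 0.000862) and ST14 was also called lower (-0.11, adjusted p = 0.0348), beside 18.5% of all genes called lower. The HGF libraries of PRSS8 (60.8 to 67.5 CPM) overlapped its MSP libraries (64.5 to 75.3 CPM), and the call with TMM factors was lost without HGF replicate 2 (adjusted p = 0.174) or 3 (0.114), without MSP replicate 1 (0.148) or 3 (0.144), or with only these 2 groups in the fit (0.119). The comparisons with vehicle and with MSP share the HGF libraries.

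The vehicle groups themselves differed with time. ST14 (0.13, adjusted p = 0.0199) and SPINT2 (0.19, adjusted p = 0.00197) were higher at 4 h than at 1 h, beside 10.9% of all genes, and TMPRSS4 was lower (-0.15, adjusted p = 0.0159), beside 9.99%. PRSS8 (0.08, adjusted p = 0.358) and SPINT1 (0.00, adjusted p = 0.973) did not pass. The ST14 call was lost without vehicle replicate 2 or 3 at 1 h or replicate 1 or 2 at 4 h (adjusted p up to 0.0924), and with no filter (0.0802). The TMPRSS4 call was lost without replicate 2 at 1 h, or replicate 1 or 3 at 4 h (adjusted p up to 0.0917). Of the 7 ratios 6 also separated the vehicle groups without overlap, 2 higher and 4 lower at 4 h, each at p = 0.1 in the exact permutation test. The share of other gene pairs that separate these groups was not tested. The same vehicle libraries are the controls of the ligand comparisons.

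Overlapping genes could add reads to some of these counts, since no strand setting is named for it in the sources used here. SPINT1-AS1, antisense to SPINT1, had 242 to 560 counts per library, at most 3.96% of the SPINT1 count, and its log2 fold change at 4 h of HGF was -0.19 (adjusted p = 0.0516 in edgeR's test). AC011479.1, on the strand of SPINT2, reached at most 1.66% of the SPINT2 count and PPP1R14A, on the other strand, at most 0.377%. PPP1R14A rose 4 h after HGF from 0.286 to 1.59 CPM (log2 fold change 2.46, adjusted p = 2e-07), which is small beside a SPINT2 level of 434 CPM. The partners of PRSS8 and TMPRSS4 were at most 0.0745% and 0.0661% of those counts, and ST14 overlaps no other gene.

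SPINT1 is the only one of the 5 tested genes with an entry in the RefSeq promoter table used here (GRCh38.p14, 250 bases before to 50 bases after a start), which lists it with 2 starts. Its upstream window is shown because SPINT1 fell under both scalings. Capitals mark the matches to the motifs searched on both strands: TGANTCA, the AP-1 type site, GGGCGG, the GC box bound by SP and KLF factors, and GCGNGGGCG, the EGR type site.
SPINT1, chr15:40843798-40844097, plus strand: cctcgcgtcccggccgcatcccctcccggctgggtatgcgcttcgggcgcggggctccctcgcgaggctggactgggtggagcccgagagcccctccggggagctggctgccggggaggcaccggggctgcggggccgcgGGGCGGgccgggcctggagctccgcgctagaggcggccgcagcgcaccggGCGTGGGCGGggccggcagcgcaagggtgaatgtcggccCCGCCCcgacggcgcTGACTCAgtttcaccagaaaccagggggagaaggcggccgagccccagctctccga

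This window held 1 TGANTCA, which 7.71% of the 35116 promoter windows in the table hold, 3 GGGCGG (45.0% hold at least 1) and 1 GCGNGGGCG (9.43%), the last overlapping a GGGCGG. It held 0 TATAAA (11.5%) and 0 CACGTG (7.26%). Its GC content was 77.7%, and its 38 CG pairs exceeded those of 90.1% of the windows, whose median was 14. The window of the other start, chr15:40844227-40844526, had 25 CG pairs and none of the 5 motifs. These are matches of letters and not binding sites.

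The rest of the pericellular protease network gave the setting at 4 h of HGF, in which gene counts were read from the same fit. Each list's counts stand beside 33.1% of all genes called higher and 34.8% called lower, and beside 21.2% and 52.0% with library totals. The secreted activators were called higher in all 3 tested of 11, with either scaling: PLAU (urokinase) rose from 187 to 463 CPM (log2 fold change 1.31, adjusted p = 5e-20), PLAT (tissue plasminogen activator) from 129 to 312 CPM (1.27, adjusted p = 3.54e-17) and F12 from 3.86 to 14.0 CPM (1.86, adjusted p = 2.28e-14). Their median log2 fold change was 1.31, beside -0.06 for all genes. Of the other type II transmembrane serine proteases, relatives of ST14, HPN and TMPRSS4, 8 of 15 were tested, and 0 were higher and 3 lower under both scalings: TMPRSS11D (-0.33), TMPRSS5 (-0.99) and CORIN (-1.59), all under 10 CPM. Their median was -0.14, and 3 of 8 is near the 34.8% of all genes called lower.

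Among the other trypsin-like proteases and kallikreins 8 of 12 were tested, with 4 higher and 1 lower (3 and 4 with library totals), beside 33.1% and 34.8% of all genes (21.2% and 52.0%), and a median of 0.17. PRSS3 rose from 17.04 to 60.3 CPM (1.82) and KLK10 from 137 to 264 CPM (0.95), while PRSS22 fell from 31.1 to 21.95 CPM (-0.50). PRSS3 has near-identical trypsin paralogs, so its counts are uncertain. PRSS22 had been higher at 1 h of HGF (0.73, adjusted p = 3.8e-06).

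Of 11 other Kunitz inhibitors 7 were tested, with 1 higher and 3 lower (1 and 6 with library totals), beside 33.1% and 34.8% of all genes (21.2% and 52.0%), and a median of -0.01. TFPI2 (tissue factor pathway inhibitor 2) rose from 12.6 to 40.8 CPM (1.69), and WFIKKN1 (-2.26) and PAPLN (-0.82) fell. Among serpins other than SERPINA5, 9 of 14 were tested, and 6 were higher and 1 lower (4 and 2 with library totals), against the same shares of all genes, with a median of 0.43. SERPINB2, an inhibitor of urokinase, rose from 22.1 to 372 CPM (4.07) and SERPINB1 from 30.8 to 123 CPM.

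Of 13 substrates and partners of matriptase, hepsin and prostasin 12 were tested, with 5 higher and 4 lower (5 and 5 with library totals) and a median of -0.08, which with TMM factors is near the 33.1% and 34.8% of all genes. This list shares PLAU with the secreted activators, and HGF and MST1 with the receptors and ligands, so their calls count in both. CDCP1, a membrane protein cut by matriptase, rose from 136 to 555 CPM (2.02), and F2RL1, the receptor PAR2, from 88.5 to 160 CPM (0.86). Among receptors and ligands, MST1R rose (0.96, adjusted p = 2.41e-13), MET was higher with TMM factors (0.32) but not with library totals (0.03, adjusted p = 0.501), MST1 fell (-1.46) and HGF had 1 count in all libraries together. For 14 of the 63 genes of these lists and the likeness search below, reads of an overlapping gene exceeded 10% of the gene's own. Among them are F12, MST1, CORIN, TMPRSS11D, TFPI2, WFIKKN1, STAT6, EPN3 and ACIN1, whose values are uncertain.

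At 1 h of HGF the secreted activators had 2 of 3 tested genes higher, the serpins 4 of 9 and the trypsin-like proteases and kallikreins 4 of 8, and none of these was lower, beside 13.8% of all genes called higher and 7.16% lower. With library totals, where 9.07% of all genes were called higher and 21.4% lower, 1 secreted activator was called, PLAT being lost (adjusted p = 0.0906). PLAU was at a log2 fold change of 1.08 (adjusted p = 2.57e-17) and SERPINB2 at 2.15 (adjusted p = 1.76e-23). With TMM factors neither the other type II transmembrane proteases nor the other Kunitz inhibitors had a called gene (0 and 2 with library totals, both lower), and the substrates and partners had 4 higher and 1 lower.

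After MSP at 1 h PLAU (0.22, adjusted p = 0.0211) and SERPINB2 (0.31, adjusted p = 0.00324) were among the genes of these lists past the threshold, and at 4 h there were 0.

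**Figure D5:**
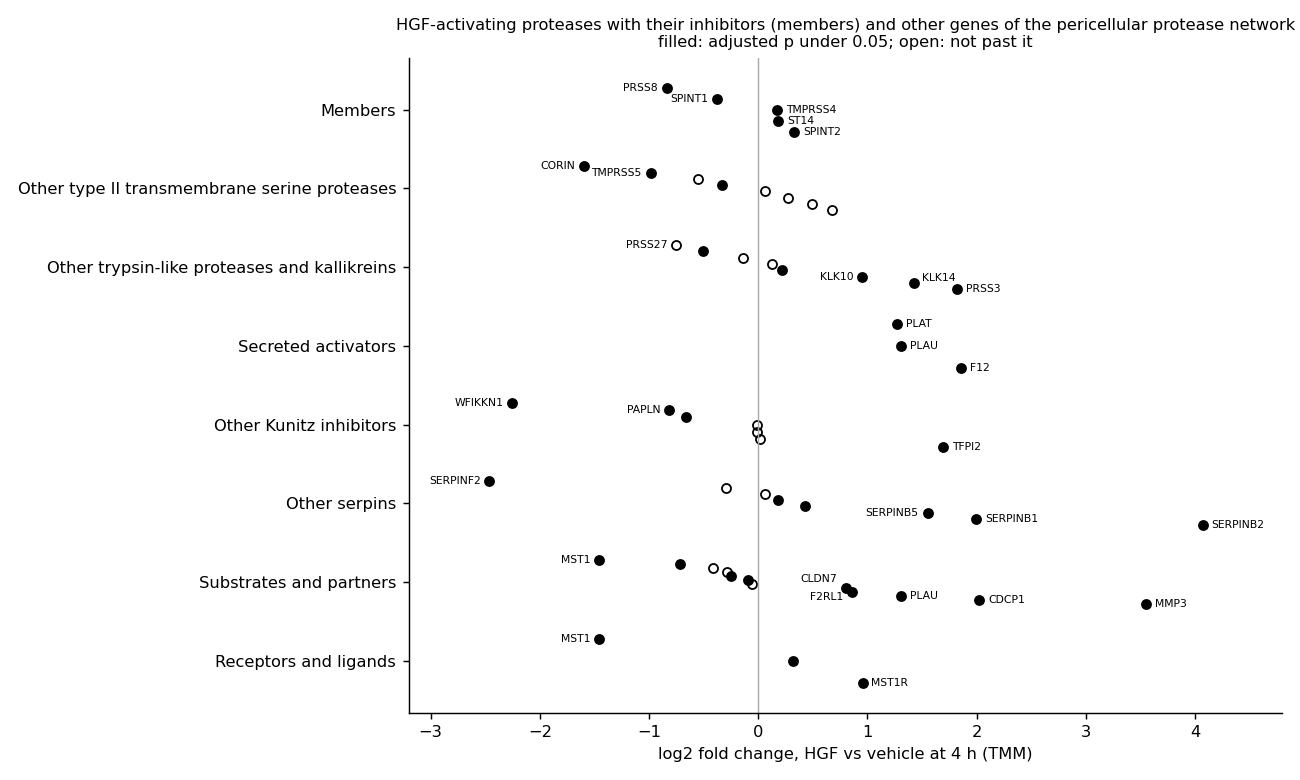
Log2 fold change for HGF against vehicle at 4 h (TMM factors) of tested genes by list (1 serpin not drawn), filled where the adjusted p was under 0.05. PRSS8 at -0.84 and SPINT2 at 0.33 bound the 5 genes followed here, whose ST14 and TMPRSS4 turn to -0.11 with library totals, while SERPINB2 reaches 4.07.

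The genes whose pattern over the 18 libraries was most like each of the 5 were found by Pearson's r of log2 CPM over 10336 genes with a mean of at least 5 CPM. They describe likeness of shape only, since all points share the same libraries and the HGF libraries at 4 h stand apart. For PRSS8 these were JAG2 (0.98), LOXL4 and EPN3, and LOXL4 fell further, from 74.3 CPM in vehicle at 4 h to 18.8 CPM after HGF. For SPINT1 they were ZER1 (0.97), BSDC1 and MAPK13, for ST14 SLC25A39 (0.98), FAAP100 and TNIP1, and for SPINT2 TMEM259 (0.99), MTCH1 and KRT7. Between 709 and 1290 genes had r above 0.9 with each of these 4, against 4 genes for TMPRSS4, whose nearest were STAT6 (0.95), UBE2C (0.93) and ACIN1 (0.92).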

How the data were processed

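RNA-seq gene counts were analysed for 18 BxPC-3 libraries, 3 for each of vehicle, HGF and MSP at 1 h and 4 h. The authors deposited whole-number counts per Ensembl gene. Alignment used STAR and counting used featureCounts from Subread, per the submitters' processing notes. Genome build, annotation release and strand setting: not given in the sources used here. Each sample was run in 2 lanes per the labels, combined in 1 column. Genes were kept by filterByExpr (minimum count 10, minimum total 15), which left 16794. edgeR 4.0.16 in R 4.3.3 fitted 1 mean per group with TMM factors and a robust quasi-likelihood model over all libraries (residual df 12), and p-values were adjusted over all genes tested by the Benjamini-Hochberg method at 0.05. The fit was tested on simulated data with few genes changed, as many up as down. That test cannot show how the fit handles changes in most genes, as in HGF at 4 h. Alternatives were library totals, DESeq2 size factors in edgeR, DESeq2 1.42.0, no filter, only the groups compared, a replicate block and leaving out each library. Ratios used counts plus 0.5. Intervals are 95%. Per-kilobase levels used the union of GENCODE 29 exons.

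The 8 genes, the lists and the comparisons were chosen with earlier results of these data known. The text names the 8 genes, MET, MST1R, HGF and MST1, up to 3 called genes per list and comparison with the smallest adjusted p, and the 3 genes most like each tested gene. Values of 1 list gene are not reported here. The 5 tested genes had 1014 to 16659 counts per library.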

Additional observations from a re-analysis of the deposited data

Results flagged for a closer look

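The HGF response, as log2 fold change against the vehicle of the same time, differed between 4 h and 1 h by edgeR's quasi-likelihood test of the difference itself (Benjamini-Hochberg adjustment over all genes tested) for 4 of the 5 tested genes, 2 more positive and 2 more negative at 4 h, beside 26.8% and 26.4% of all genes. PRSS8 differed by -0.71 (adjusted p = 6.62e-09) and SPINT1 by -0.45 (adjusted p = 2.89e-07), with the 4 h value the more negative. SPINT2 differed by 0.20 (adjusted p = 0.0079) and ST14 by 0.16 (adjusted p = 0.0195). With library totals SPINT2 and ST14 differed by 0.01 and -0.03 and were not called. TMPRSS4 differed by 0.08 (adjusted p = 0.281). For PRSS8 the log2 fold change went from -0.13 at 1 h to -0.84 at 4 h, and for SPINT1 from 0.07 to -0.38.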

How the results depend on the processing

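The log2 fold changes of the 5 tested genes were recomputed 510 times over 40 gene-by-comparison results. Of these, 477 kept their side of the threshold and, where called, their direction. Results called in neither fit could change sign within the 477, as ST14 did for HGF against vehicle at 1 h (-0.08 to 0.03). Another 23 lost a call, 5 gained one and 5 with a call in at least 1 fit reversed direction. These 5 reversals all came with library totals: ST14 to -0.11 for HGF against vehicle at 4 h, -0.14 for HGF against MSP at 4 h and -0.026 for the time difference of the HGF effect, and TMPRSS4 to -0.11 and -0.14 in the first 2. PRSS8 and SPINT1 at 4 h of HGF kept their calls under every alternative run. Library totals gave 2 of the 5 genes called for HGF against MSP at 1 h, both lower, beside 18.5% of all genes called lower. For the time difference of the HGF effect they gave 2, both more negative, beside 37.9% of all genes. With only the compared groups in the fit, 2 were called for HGF against vehicle at 1 h and 0 for HGF against MSP at 1 h. In the main fit 21.0% and 17.7% of all genes were called in these comparisons. Genes called for MSP against vehicle at 4 h numbered 354 with no filter, 402 with only the compared groups and 310 with DESeq2, against 179, and at 1 h 81 with only the compared groups, against 140. Leaving out each library in turn gave 0 to 1 of the 5 genes for HGF against vehicle at 1 h, beside 2938 to 3069 of all genes. It gave 0 to 1 for HGF against MSP at 1 h, beside 2455 to 3103 of all genes. For vehicle over time it gave 1 to 3, beside 2227 to 2975 of all genes (3513 with every library in the fit). Of all genes 16 to 220 were called for MSP at 4 h. The fewest for MSP at 4 h came without MSP replicate 2 (16), vehicle replicate 3 (20), vehicle replicate 2 (32) and MSP replicate 3 (83). The replicate numbers paired the libraries weakly at most: over 45 pairs with the same number the correlation of deviations was -0.065 to 0.12. Of these 1 was over 0.1. The median was 0.031, against -0.013 over pairs with different numbers, and 14 of 18 libraries correlated best with their own number. With the numbers as a replicate block, 5 of the 5 genes were called for HGF at 4 h (PRSS8 at -0.84) and 1 at 1 h. In the main fit 67.9% and 21.0% of all genes were called at these times. All 343 recomputed ratio differences moved by no more than the larger SD of the 2 groups compared. Leaving out 1 of 3 libraries cannot move a group mean further than that, so this says nothing of stability. Of the 343, 11 changed sign when a library was left out, over 7 results whose log2 value was at most 0.0254 in size. In the order of levels per kilobase at 1 h of vehicle, ST14, PRSS8 and TMPRSS4 changed places with the longest transcript as the length. HPN, HGFAC and SERPINA5 had too few counts to be tested.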
